A study of Mus musculus with 12 samples.

Results

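The collagen gene family of mouse skeletal muscle was described across cFeimin MKO and WT animals that had run or rested. Members were the genes whose symbol is Col, a type number, the letter a and a chain number, and which had at least 15 counts summed over 12 libraries. Of 44 such symbols in the count table, 39 met this minimum, out of 43432 gene identifiers in all. Col9a3 had 6 counts, and Col2a1, Col6a4, Col6a5 and Col10a1 had 0. The members comprised 10 fibrillar collagens, 6 chains of basement membrane collagen IV, 4 chains of microfibrillar collagen VI, 8 fibril-associated collagens with interrupted triple helices (FACIT), 2 multiplexins, 2 network-forming collagens, 4 transmembrane collagens and 3 others.

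RNA was sequenced from gastrocnemius, the large calf muscle, of male mice. Each of the 4 groups held 3 libraries: cFeimin MKO after running (Exe_KO), fl/fl littermates after running (Exe_WT), sedentary cFeimin MKO (Sed_KO) and sedentary fl/fl (Sed_WT). The fl/fl animals (a notation for floxed alleles on both chromosomes) are called WT, cFeimin MKO animals MKO, a genotype with loss of Feimin, and sedentary animals resting. Running lasted 90 min at 60% of each animal's maximal speed, and neither the Cre driver nor the time between run and sampling is stated. Nothing says whether libraries came from separate animals, so a p-value here reflects how much these samples vary, which may be technical.

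Collagens are proteins of 3 chains wound into a triple helix and secreted into the extracellular matrix. In muscle, fibrillar collagens bear tension in the connective tissue between fibres and fascicles, collagen IV forms the sheet-like network of the basement membrane around each fibre and vessel, and collagen VI forms beaded filaments that join that sheet to the interstitial matrix. Fibroblasts and fibro-adipogenic progenitors make most of the fibrillar collagen of muscle, while endothelial and mural cells and muscle fibres also contribute to the basement membrane.

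Count totals lay between 14324010 and 14563501 per library, of which the collagen genes took 0.0302% to 0.0964%. Levels are given as CPM, counts scaled to a common library size, or per kilobase (kb) of exon where genes are compared with each other. Exon length joins all annotated exons of a gene, of any transcript, so levels per kb depend on the annotation. The gene taken to encode Feimin, B230219D22Rik, lay at 3.52 to 6.13 CPM in MKO libraries and at 21.6 to 29.9 CPM in WT libraries, the direction of the genotype labels. The running MKO libraries differed among themselves, and not in 1 way. On the first principal component of all tested genes replicate 2 lay at 28.4, against 12.3 and 12.4 for replicates 1 and 4, while the running WT libraries lay between 33.0 and 39.6. On the second component replicate 4 lay apart, at -45.8 against -15.6 and -4.4 for replicates 1 and 2. Resting MKO replicate 3 had the highest scaling factor (1.15). Values without running MKO replicate 2, and some without replicate 4, are given beside the results that they move.

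Chains of collagens IV, VI, III and I led the family. Per kb of exon, the mean level over the 12 libraries was 11.5 CPM for Col4a1 and 9.20 CPM for Col4a2, which encode the chains present in all basement membranes. Col6a1, the α1 chain of collagen VI, followed at 8.37 CPM per kb and Col3a1, the only chain of collagen III, at 8.30 CPM per kb. Col1a1 and Col1a2, the chains of collagen I, had 7.57 and 5.03 CPM per kb. Their joined exons span 6563 and 12426 bases, and by counts over all libraries (8816 and 11050) their order is the reverse. These leading genes lie close together: between Col6a1 and Col3a1 the means differ by far less than the spread between libraries. Col6a2 had 4.48 CPM per kb and Col15a1, a multiplexin of the basement membrane zone, 2.97 CPM per kb. The remaining 31 members lay below Col15a1, down to 0.00852 CPM per kb for Col25a1, a transmembrane collagen. Together Col4a1, Col3a1, Col1a2, Col4a2 and Col1a1 took 57.0% to 65.7% of all collagen CPM in a library.

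**Figure D1:**
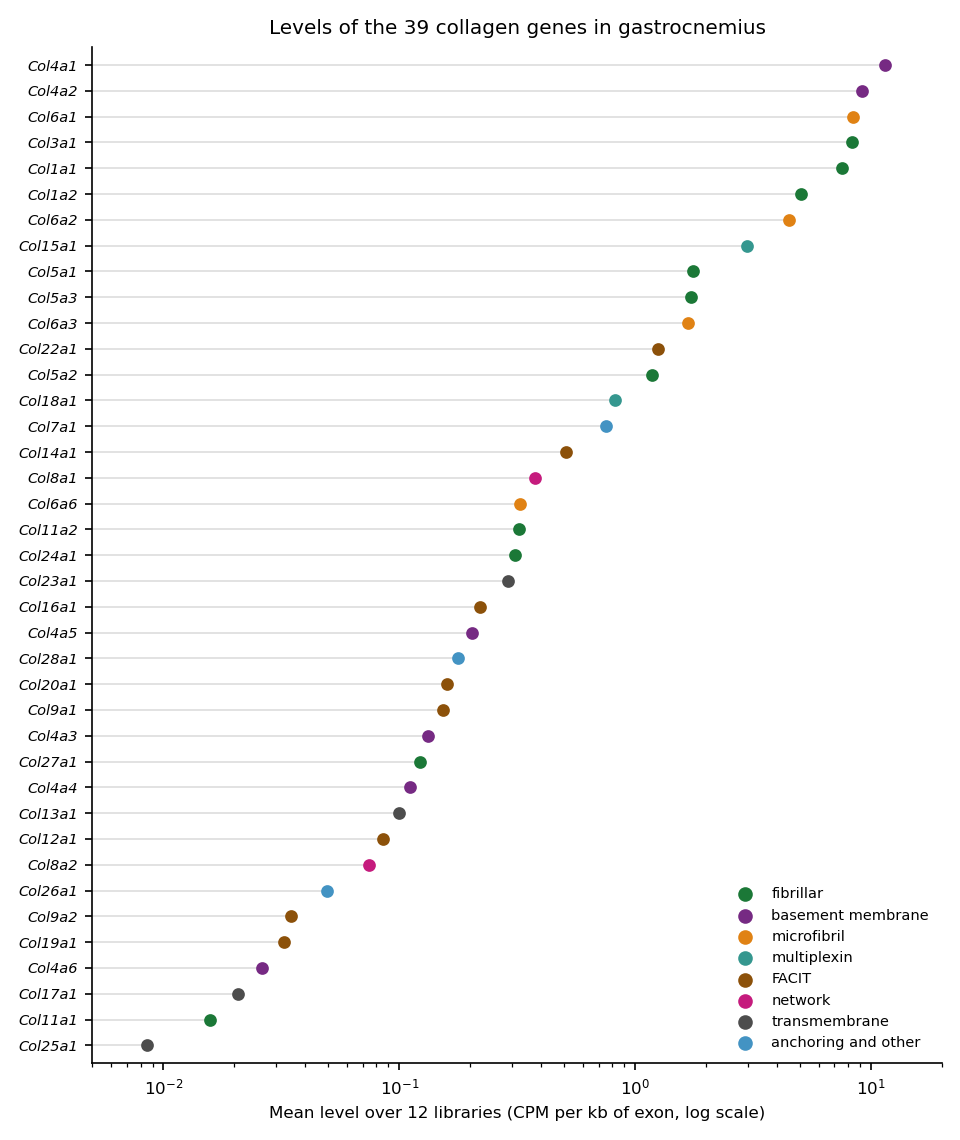
Mean level of each of the 39 collagen genes over the 12 libraries, in CPM per kb of exon on a log axis, ordered from highest to lowest and coloured by class. Col4a1 (11.5 CPM per kb) and Col4a2 (9.20 CPM per kb) head the order, and Col25a1 stands last.

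A total of 30 members had enough counts to be tested, and 9 did not (the filter needed 0.692 CPM in the number of libraries of the smallest group). Of the 30, 24 reached that level in every library and 29 in at least 1 library of every group. The exception was Col9a1, a cartilage-type FACIT gene, which reached it in 6 libraries. These included every running WT library and no running MKO library. Col9a1 thus entered the test through the groups where it was higher, so its low values in running MKO carry no weight as support. The untested members were Col13a1, Col8a2, Col26a1, Col19a1, Col4a6, Col11a1, Col17a1, Col9a2 and Col25a1, with 80, 58, 71, 40, 37, 35, 22, 19 and 19 counts over all libraries. Col4a6, which pairs with Col4a5 in some basement membranes, had 4, 3 and 3 counts in running MKO libraries, 0 in each running WT library, 5, 4 and 6 in resting MKO libraries and 3, 5 and 4 in resting WT libraries. In the 3 running WT libraries a count of 0 allows up to 0.212, 0.222 and 0.221 CPM (3 counts, counting error only). It was tested only without the filter or by DESeq2, where the running effect in WT passed at log2 fold changes of -5.02 (edgeR, adjusted p = 0.00581) and -4.35 (DESeq2, adjusted p = 0.0347), which are not bounds on its size.

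Several members are neighbours in the genome (GRCm38.p6 coordinates). Col4a1 (chr8:11198423-11312826, minus strand) and Col4a2 (chr8:11312805-11449287, plus strand) are transcribed away from each other, and their first exons overlap by 22 bases. These bases are shown because the levels of both genes move together. They are printed in lower case with no motif marked, although they hold the letters GGGCGG, which are marked in the promoters further below.
Col4a1 and Col4a2 (chr8:11312805-11312826, plus strand): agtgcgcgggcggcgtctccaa
Col4a4 and Col4a3 also start head to head on chromosome 1, 72 bases apart, and Col4a6 and Col4a5 on chromosome X, 1309 bases apart. Col3a1 (chr1:45311538-45349706, plus strand) and Col5a2 (chr1:45374321-45503282, minus strand) lie tail to tail with 24614 bases between them. Col6a2 and Col6a1 lie in tandem on chromosome 10 with 85161 bases between them.

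How closely the chains of one protein kept their proportions differed between proteins. The SD of the log2 ratio was smallest for Col4a1 with Col4a2 among the pairs for which it is given. Col4a1 and Col4a2 also varied less alone than Col6a1 and Col6a2, so this SD does not show closer tracking than in collagen VI. The ratio of Col4a1 to Col4a2 per kb was 1.20, 1.22 and 1.26 in running MKO libraries, 1.30, 1.24 and 1.23 in running WT, 1.38, 1.21 and 1.27 in resting MKO and 1.17, 1.36 and 1.21 in resting WT. Over the 12 libraries the log2 ratio had an SD of 0.07, against 0.32 for Col4a1 and 0.31 for Col4a2 alone. For Col6a1 over Col6a2 the ratio lay between 1.68 and 2.11, and its log2 SD was 0.12 against 0.59 for each gene alone. The size of such ratios rests on exon length, whereas their spread does not. Col6a1 and Col6a2 had 6475 and 6587 counts over all libraries, on 4380 and 8326 exon bases. Col1a1 over Col1a2, whose protein holds both chains, was looser. This ratio ranged from 0.971 in a running WT library to 1.9 in a running MKO library, with a log2 SD of 0.29 against 0.89 for Col1a1 and 0.64 for Col1a2. Col4a4 over Col4a3, the other head-to-head pair that was tested, had a log2 SD of 0.415, against 0.425 for Col4a4 and 0.302 for Col4a3 alone. Col4a4 and Col4a3 had 206 and 231 counts over all libraries, so counting error bears on that ratio. Other pairs within a protein lay between these: Col5a1 over Col5a2 ran from 1.19 to 1.79 and Col6a3 over Col6a1 from 0.153 to 0.273. Between proteins, Col3a1 over Col1a1 ran from 0.885 to 1.43, a narrower range than that of Col1a1 over Col1a2, whereas Col4a1 over Col1a1 ran from 0.869 to 4.14.

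**Figure D2:**
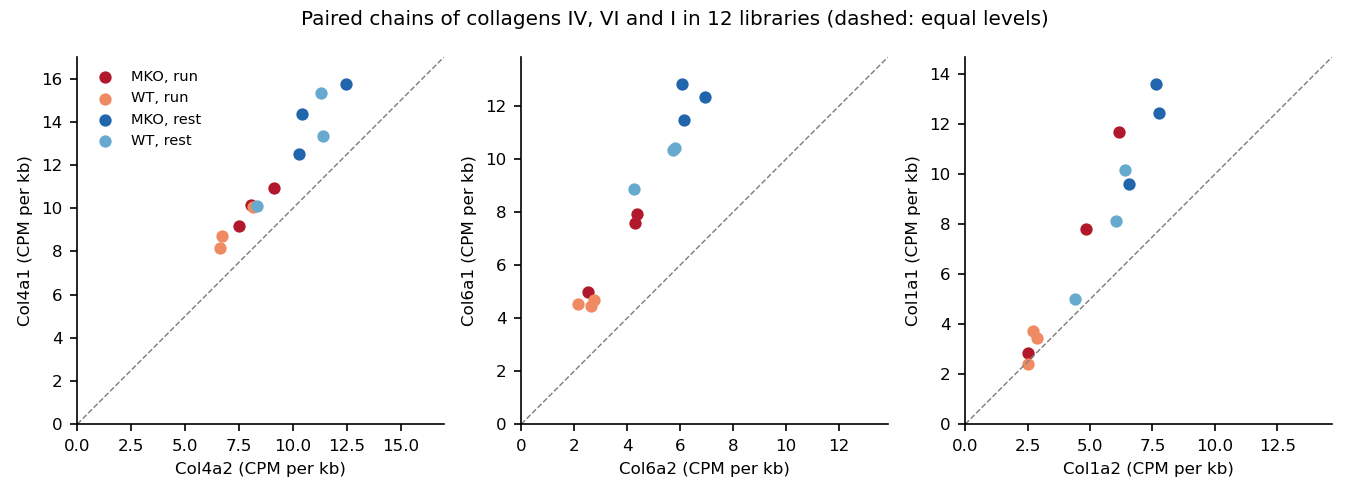
Col4a1 against Col4a2, Col6a1 against Col6a2 and Col1a1 against Col1a2 in CPM per kb, 1 point for each of 12 libraries coloured by group, with a dashed line at equal levels. Where points lie beside that line depends on the annotated exon lengths. Points of the first and second pair lie along a line through the origin (ratios 1.17 to 1.38 and 1.68 to 2.11), and those of the third scatter more (0.971 to 1.9).

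Running against rest asks how muscle of animals that had run differs from muscle of animals that had not. Averaged over both genotypes, 15 of the 39 members were lower after running and none was higher (edgeR quasi-likelihood test, Benjamini-Hochberg adjusted p under 0.05 over 14486 genes). Over all genes tested, 13.6% passed in this comparison, 7.40% lower and 6.16% higher. The median log2 fold change of the 30 tested members was -0.65, against 0.00 over all genes, and 25 of 30 were below 0. By class, 6 of 9 tested fibrillar collagens, 4 of 4 collagen VI chains, 2 of 2 multiplexins, 2 of 5 collagen IV chains and 1 of 6 FACIT collagens were lower. In bulk tissue, fewer cells of a type and less RNA per cell cannot be told apart.

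Col3a1, which co-assembles with collagen I in fine fibrils, showed the lowest value among the fibrillar collagens. It had 82.5, 26.1 and 101.6 CPM in running MKO libraries and 34.4, 31.9 and 34.0 CPM in running WT libraries. At rest it had 102.4, 138.1 and 166.1 CPM in MKO libraries and 95.8, 113.6 and 51 CPM in WT libraries. Within each genotype every running library lay below every resting one. The log2 fold change was -1.16 ± 0.29 (SE; edgeR, adjusted p = 0.0193), a ratio of 0.446, and it did not pass without resting WT replicate 3 (adjusted p = 0.0517).

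Collagen I followed the same direction with a wider spread. Col1a1 had 51.2, 18.6 and 76.7 CPM in running MKO, 24.5, 22.5 and 15.9 CPM in running WT, 63.0, 81.6 and 89.3 CPM in resting MKO and 66.7, 53.3 and 32.9 CPM in resting WT libraries. Running MKO replicate 4 thus lay within the range of the resting MKO libraries. Its log2 fold change was -0.98 ± 0.29 (edgeR, adjusted p = 0.0433), and of 12 fits that each left out 1 library it passed in 3, those without resting WT replicate 4, running MKO replicate 2 or running MKO replicate 4. The values in these 12 fits lay between -1.22 and -0.78, with adjusted p up to 0.101. Col1a2 was steadier, at -0.88 ± 0.18 (adjusted p = 0.00607) and passing in all 12 such fits. It had 60.1, 31.3 and 76.5 CPM in running MKO, 33.6, 35.8 and 31.0 CPM in running WT, 81.4, 96.5 and 95.1 CPM in resting MKO and 79.7, 74.9 and 54.7 CPM in resting WT libraries.

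Collagen V, which starts fibrils and limits their width, was lower in all 3 of its chains. Col5a1 averaged 11.8 ± 4.83 CPM in running MKO, 8.86 ± 0.452 in running WT, 22 ± 2.0 in resting MKO and 17.1 ± 2.21 in resting WT muscle (SD, n = 3). Its log2 fold change was -0.92 ± 0.17 (edgeR, adjusted p = 0.0033). Col5a3 had -0.85 ± 0.14 (adjusted p = 0.00158) and Col5a2 -0.82 ± 0.16 (adjusted p = 0.0044). The other fibrillar genes did not pass. Col27a1 had -0.58 ± 0.22 (adjusted p = 0.12), whereas Col24a1 with 0.58 ± 0.24 (adjusted p = 0.141) and Col11a2 with 0.29 ± 0.18 (adjusted p = 0.346) had positive values. Without resting MKO replicate 1, Col24a1 passed as higher (0.79, edgeR, adjusted p = 0.0423).

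**Figure D3:**
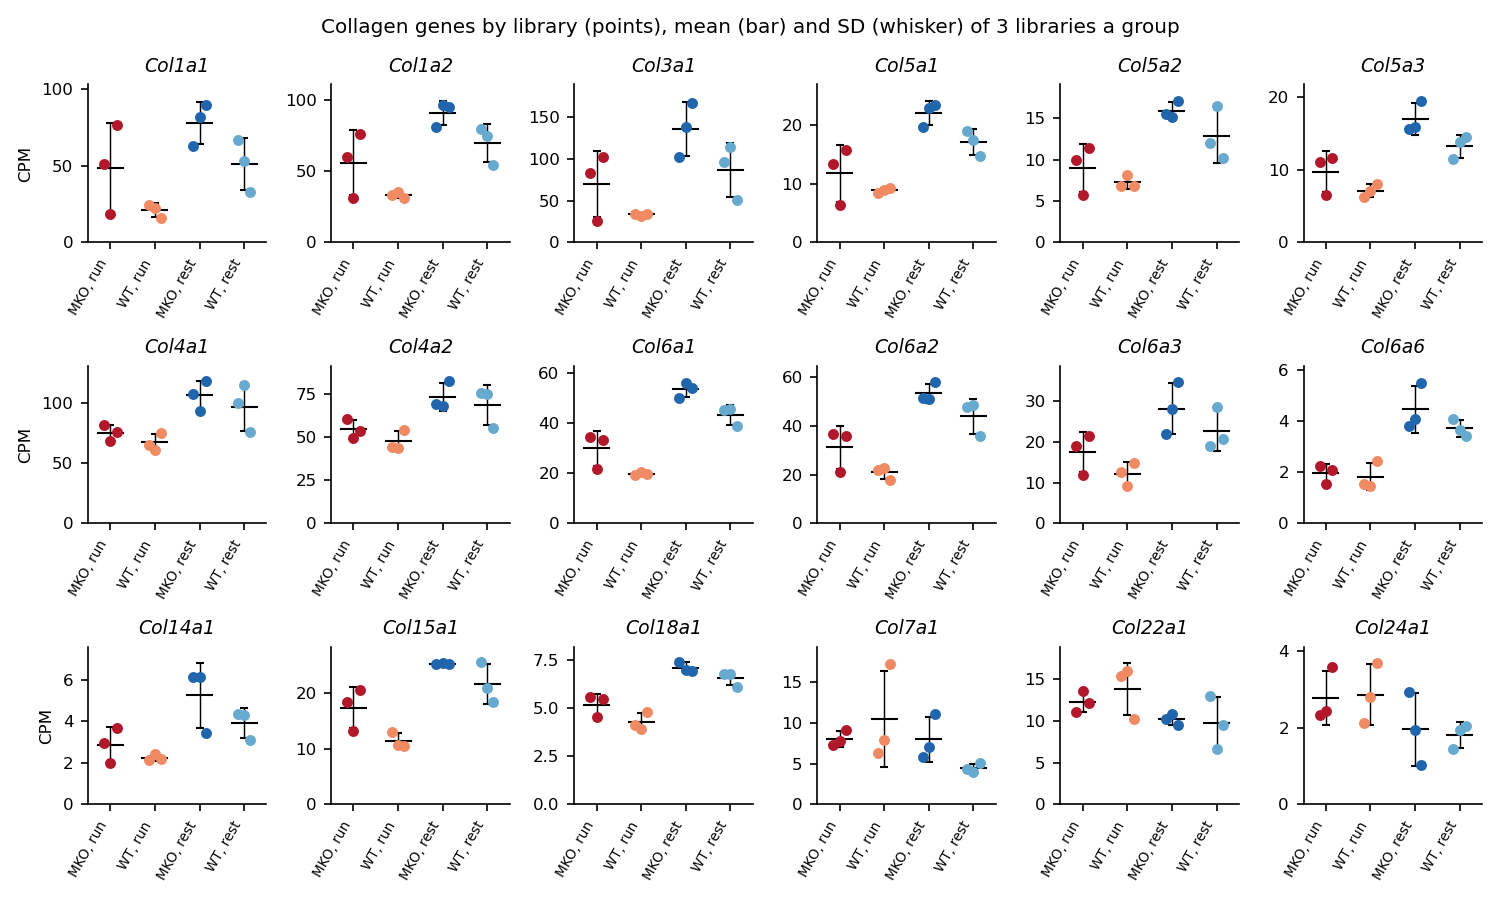
Level in CPM of 18 collagen genes in each library (points), with the mean (bar) and SD (whisker) of the 3 libraries of each group, for running MKO, running WT, resting MKO and resting WT from left to right. In the panel of Col6a1 all 6 running libraries (19.5 to 34.7 CPM) lie below all 6 resting ones (38.8 to 56.2 CPM), and in that of Col3a1 running MKO replicate 2 (26.1 CPM) lies apart from the other running MKO libraries.

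Chains of collagen VI had the 3 lowest p-values of the family. Mutations of its first 3 chains cause Bethlem and Ullrich muscle disease in humans. Col6a1 had 34.7, 21.8 and 33.3 CPM in running MKO, 19.5, 20.5 and 19.8 CPM in running WT, 50.2, 56.2 and 54.0 CPM in resting MKO and 45.3, 45.7 and 38.8 CPM in resting WT libraries. The groups did not overlap, in either genotype or over all 6 running and 6 resting libraries. The log2 fold change was -0.98 ± 0.10 (edgeR, adjusted p = 8.03e-05), a ratio of 0.508. Col6a2 had 36.5, 20.9 and 35.9 CPM in running MKO, 22, 22.8 and 17.8 CPM in running WT, 51.1, 50.7 and 57.8 CPM in resting MKO and 47.8, 48.3 and 35.6 CPM in resting WT libraries. Its value was -0.92 ± 0.14 (adjusted p = 0.000869); only running MKO replicate 1 and 4 and resting WT replicate 4 met in the middle. Col6a3, the chain with the longest globular ends, had -0.79 ± 0.18 (adjusted p = 0.0103). Col6a6, a chain found in muscle at a lower level, averaged 1.97 ± 0.367 CPM in running MKO, 1.82 ± 0.53 in running WT, 4.46 ± 0.915 in resting MKO and 3.71 ± 0.318 in resting WT muscle, with -1.10 ± 0.15 (adjusted p = 0.000531). All 6 running libraries lay below all 6 resting ones for 3 tested members, Col6a1, Col6a6 and Col18a1 (3.83% of all genes), and above them for none (3.75%).

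Among the basement membrane collagens, Col4a1 and Col4a2 were lower, with smaller values. Col4a1 had 81.6, 68.4 and 75.8 CPM in running MKO, 65.1, 61.0 and 75.1 CPM in running WT, 107.1, 93.2 and 117.5 CPM in resting MKO and 99.5, 114.6 and 75.3 CPM in resting WT libraries. Its log2 fold change was -0.51 ± 0.11 (edgeR, adjusted p = 0.00759), a ratio of 0.703. Col4a2 had -0.48 ± 0.10 (adjusted p = 0.00727). Resting WT replicate 4 overlapped the running MKO libraries in both genes. The chains found mainly in kidney and other specialised membranes did not pass: Col4a3 had -0.12 ± 0.19, Col4a4 -0.34 ± 0.23 and Col4a5 -0.19 ± 0.17. Whether collagen IV and fibrillar collagens differed in their response was not tested.

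Both multiplexins, which sit where the basement membrane meets the matrix, were lower. Col15a1 had 18.4, 13.2 and 20.4 CPM in running MKO, 12.9, 10.7 and 10.5 CPM in running WT, 25.2, 25.3 and 25.1 CPM in resting MKO and 25.4, 20.8 and 18.4 CPM in resting WT libraries. The log2 fold change was -0.73 ± 0.11 (edgeR, adjusted p = 0.000989). Col18a1, the source of endostatin, had -0.53 ± 0.08 (adjusted p = 0.00109), and its 6 running libraries (3.92 to 5.55 CPM) lay below its 6 resting ones (6.11 to 7.40 CPM).

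FACIT collagens sit on the surface of fibrils, and of these only Col14a1 passed (-0.83 ± 0.18, edgeR, adjusted p = 0.0108). It averaged 2.87 ± 0.835 CPM in running MKO, 2.26 ± 0.162 in running WT, 5.24 ± 1.55 in resting MKO and 3.91 ± 0.713 in resting WT muscle. Col12a1, its close relative, had -0.13 ± 0.31 (adjusted p = 0.85), and Col9a1 had -1.05 ± 0.56 (adjusted p = 0.268), the third lowest value of the family. Col22a1, a collagen of the myotendinous junction, had a positive value of 0.39 ± 0.15 (adjusted p = 0.124), with 11.1, 13.6 and 12.2 CPM in running MKO, 15.4, 16.0 and 10.3 CPM in running WT, 10.3, 10.8 and 9.56 CPM in resting MKO and 13.0, 6.68 and 9.54 CPM in resting WT libraries. It passed without resting WT replicate 1 (0.53, adjusted p = 0.0289). Col7a1, which forms anchoring fibrils in skin, had the highest value (0.62 ± 0.24, adjusted p = 0.126), and its level reached 17.3 CPM in 1 running WT library against 4.05 to 11.1 CPM in the other 11. Col20a1 was at 0 counts in 4 libraries spread over 3 groups and at 12 to 25 counts in the other 8. It shares 79 exonic bases with BX649560.1 on the same strand, and how the authors' counting divided such reads is not stated.

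Taking each genotype alone, 4 members were lower after running in MKO and 10 in WT, none higher in edgeR. In MKO 4.05% of all genes passed (1.75% lower and 2.29% higher), and in WT 8.24% (4.10% lower and 4.14% higher). In MKO the members were Col6a1, Col6a6, Col5a3 and Col6a2, with a median over the 30 tested members of -0.50. In WT they were Col6a1, Col15a1, Col6a2, Col18a1, Col6a6, Col5a3, Col1a2, Col5a1, Col4a2 and Col5a2, with a median of -0.77. The 4 of MKO are among the 10 of WT, which makes all of the MKO calls and 40.0% of the WT calls. DESeq2 passed 6 members as lower in MKO, and in WT 14 as lower and Col7a1 as higher (1.24, adjusted p = 0.0182). Both edgeR counts moved with single libraries. The MKO count was 2 without resting MKO replicate 1, resting MKO replicate 2 or running MKO replicate 1, and the WT count was 5 without resting WT replicate 3 or running WT replicate 3 and 4 without running WT replicate 4. Of the 5 without running WT replicate 3, 4 were lower and Col7a1 was higher (1.5, adjusted p = 0.0241), and without resting WT replicate 1 Col22a1 passed as higher in WT (0.78, adjusted p = 0.0495). Without overlap between running and resting libraries, 15 tested members were lower in MKO (11.6% of all genes) and 18 in WT (14.8%), while 1 was higher in MKO (10.1%) and 2 in WT (12.5%).

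**Figure D4:**
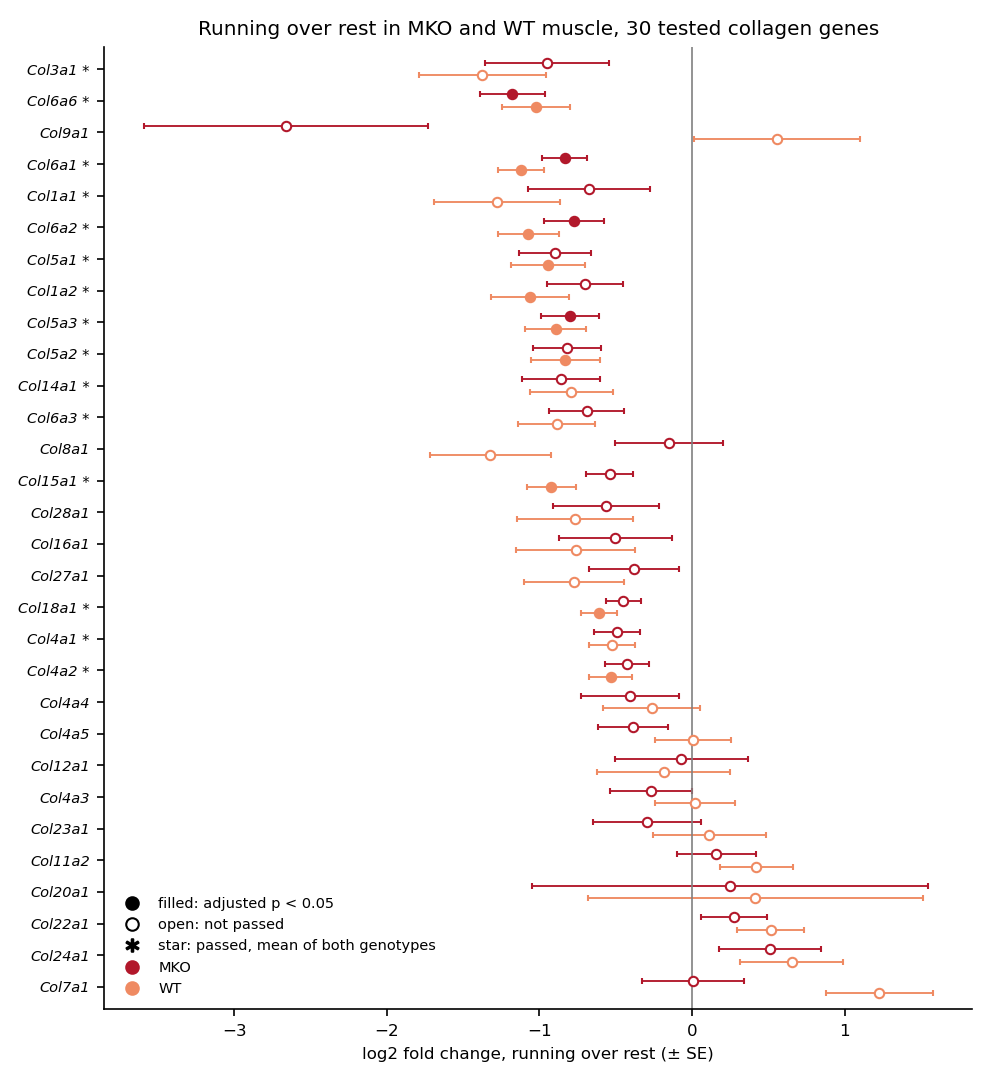
Log2 fold change of running over rest (± SE) of the 30 tested members in MKO (dark red) and WT (orange), ordered by the mean of both genotypes. Filled points passed at an adjusted p under 0.05 in that genotype (4 in MKO, 10 in WT) and stars mark the 15 that passed over both. Most points of both genotypes lie left of 0.

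Per gene, the running effects of MKO and WT can be set side by side. Col6a1 had -0.84 ± 0.15 in MKO (edgeR, adjusted p = 0.00741) and -1.12 ± 0.15 in WT (adjusted p = 0.000762). Col6a2 had -0.77 ± 0.20 in MKO (adjusted p = 0.0491), a call lost in each of the 6 fits without 1 library, and -1.07 ± 0.20 in WT. Col6a6 had -1.18 ± 0.21 in MKO (adjusted p = 0.0093) and -1.02 ± 0.22 in WT (adjusted p = 0.014). Col5a3 had -0.80 ± 0.19 in MKO (adjusted p = 0.04) and -0.89 ± 0.20 in WT (adjusted p = 0.0162). In all, 2 of the 4 MKO calls (Col6a1 and Col6a6) and 4 of the 10 WT calls (Col6a1, Col15a1, Col6a2 and Col18a1) held in every fit that left out 1 library of the comparison. In WT, Col6a6, Col5a3, Col1a2, Col5a1, Col4a2 and Col5a2 did not pass without running WT replicate 3 or without running WT replicate 4 (adjusted p up to 0.0698, 0.077, 0.0848, 0.118, 0.145 and 0.179 over all such fits). All of these but Col6a6 were also lost without resting WT replicate 3. In MKO, Col5a3 passed only without running MKO replicate 4 (adjusted p up to 0.126 in the other fits). Below the threshold, Col3a1 had -0.95 ± 0.41 in MKO and -1.38 ± 0.42 in WT, and Col1a1 -0.67 ± 0.40 in MKO and -1.28 ± 0.41 in WT. Col1a2, Col15a1 and Col5a1 had -0.70, -0.54 and -0.90 in MKO and -1.06, -0.92 and -0.95 in WT. Of the 14 members followed in every comparison, those remaining had, in MKO and then in WT, these values: Col4a1 had -0.49 and -0.52, Col4a2 -0.43 and -0.53, Col5a2 -0.82 and -0.83, Col6a3 -0.69 and -0.89, Col12a1 -0.07 and -0.19, Col14a1 -0.86 and -0.79, and Col18a1 -0.45 and -0.61. In MKO, Col9a1 (-2.66 ± 0.93), Col6a6 and Col3a1 had the 3 lowest values and Col24a1 (0.51 ± 0.33), Col22a1 (0.27 ± 0.22) and Col20a1 (0.25 ± 1.30) the 3 highest. In WT, Col3a1, Col8a1 (-1.32 ± 0.40) and Col1a1 had the 3 lowest, and Col7a1 (1.23 ± 0.35, adjusted p = 0.0517), Col24a1 (0.65 ± 0.34) and Col9a1 (0.56 ± 0.55) the 3 highest.

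Whether the running effect differed between genotypes was tested as an interaction, and no member passed (edgeR; 0 of all genes passed, DESeq2 0 members). An unadjusted p under 0.05 was reached by 3 members and by 534 of 14486 genes (edgeR). These members were Col7a1 (-1.22 ± 0.48, MKO minus WT), Col8a1 (1.17 ± 0.53) and Col9a1 (-3.22 ± 1.09), each at an adjusted p of 0.983. Col9a1 entered the test through the groups where it was higher, so its value carries no weight as support. Counts of Col9a1 were low, with 0, 0 and 4 in running MKO, 14, 14 and 30 in running WT, 15, 10 and 5 in resting MKO and 13, 8 and 21 in resting WT libraries. Col8a1 had 11 to 66 counts and Col7a1 60 to 235 counts in a library. The median interaction over the tested members was 0.07, and it was -0.12 without running MKO replicate 4. The highest values after Col8a1 were Col1a1 (0.60 ± 0.57) and Col3a1 (0.42 ± 0.57); Col23a1 (-0.41 ± 0.51) was the third lowest. Between these were Col15a1 with 0.38 ± 0.22, Col1a2 with 0.36 ± 0.36, Col6a2 with 0.30 ± 0.28, Col6a1 with 0.28 ± 0.21, Col6a3 with 0.20 ± 0.35, Col18a1 with 0.16 ± 0.17, Col12a1 with 0.12 ± 0.62, Col4a2 with 0.11 ± 0.20, Col5a1 with 0.04 ± 0.34, Col4a1 with 0.03 ± 0.21, Col5a2 with 0.01 ± 0.31 and Col14a1 with -0.07 ± 0.38. The SE of these differences is large beside their size, so responses of MKO and WT were not separated and were not shown to be alike.

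MKO against WT asks what loss of the gene does in muscle at rest and after a run. At rest no member passed (edgeR, and 0 with DESeq2), against 0.00690% of all genes. An unadjusted p under 0.05 was reached by 2 members, Col7a1 (0.84 ± 0.35) and Col4a5 (0.58 ± 0.23), and by 545 of 14486 genes (edgeR). Yet 23 of 30 tested members had a positive value, with a median of 0.27 against 0.00 over all genes. Every resting MKO library lay above every resting WT library for 8 members, where 5.43% of all genes did so, and below it for none (4.91%). Col1a2 was 1 of them, at 81.4, 96.5 and 95.1 CPM in MKO and 79.7, 74.9 and 54.7 CPM in WT libraries (0.38 ± 0.25). Among the members followed in every comparison, values ran from -0.12 ± 0.43 (Col12a1) through 0.09 ± 0.14 (Col4a2), 0.12 ± 0.11 (Col18a1), 0.14 ± 0.15 (Col4a1), 0.23 ± 0.15 (Col15a1), 0.28 ± 0.19 (Col6a2), 0.31 ± 0.15 (Col6a1), 0.31 ± 0.24 (Col6a3), 0.31 ± 0.22 (Col5a2), 0.37 ± 0.23 (Col5a1), 0.42 ± 0.24 (Col14a1) and 0.61 ± 0.40 (Col1a1) to 0.64 ± 0.40 (Col3a1), the second highest of the members. Col20a1 (-0.70 ± 1.22), Col9a1 (-0.55 ± 0.60) and Col11a2 (-0.37 ± 0.25) were lowest.

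After running, again no member passed (edgeR, 0.0345% of all genes, 0.0276% lower), while DESeq2 passed 1, Col6a1 (0.58, adjusted p = 0.0458). An unadjusted p under 0.05 was reached by 10 members, Col9a1 among them, and by 2319 of 14486 genes (edgeR). The median was 0.29, against 0.01 over all genes. Col1a1 had the highest value (1.22 ± 0.41, edgeR, adjusted p = 0.229), then Col8a1 (1.16 ± 0.40) and Col3a1 (1.07 ± 0.41). Col9a1 had the lowest (-3.77 ± 0.83, adjusted p = 0.203), then Col20a1 (-0.87 ± 1.17) and Col11a2 (-0.63 ± 0.25). With 0, 0 and 4 counts in running MKO libraries, the Col9a1 value is not a bound on its size. It ran from -7.37 to -3.20 with 1 library left out. The other members followed throughout were Col1a2 with 0.74 ± 0.26, Col15a1 with 0.61 ± 0.16 (adjusted p = 0.204), Col6a1 with 0.59 ± 0.15 (adjusted p = 0.203), Col6a2 with 0.58 ± 0.20, Col6a3 with 0.51 ± 0.25, Col5a1 with 0.41 ± 0.25, Col14a1 with 0.35 ± 0.28, Col5a2 with 0.32 ± 0.23, Col18a1 with 0.28 ± 0.12, Col4a2 with 0.20 ± 0.14, Col4a1 with 0.17 ± 0.15 and Col12a1 with 0.00 ± 0.44. MKO and WT libraries did not overlap for 3 members higher in MKO, Col6a1, Col15a1 and Col8a1 (11.1% of all genes). The same held for 2 members lower in MKO, Col11a2 and Col9a1 (12% of all genes). Of these 2, Col9a1 carries no weight as support, as stated above.

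This comparison turned on single running MKO libraries. The summed level of the fibrillar collagens was 234.7, 99.8 and 300.9 CPM in running MKO libraries 1, 2 and 4, against 119.6, 121.2 and 113.7 CPM in running WT libraries. At rest it was 305.7, 375.2 and 415.5 CPM in MKO and 290.2, 295.1 and 184.7 CPM in WT libraries. Of the running MKO libraries, replicate 2 lay below all 3 running WT libraries and the other two lay above them. Without replicate 2, 6 members passed as higher in running MKO (edgeR): Col1a1 (1.60, adjusted p = 0.0348), Col1a2 (1.02, adjusted p = 0.023), Col6a2 (0.79, adjusted p = 0.0409), Col6a1 (0.76, adjusted p = 0.00916), Col15a1 (0.76, adjusted p = 0.0367) and Col5a1 (0.70, adjusted p = 0.0482), where 108 of 14745 genes passed. Without replicate 4, 3 genes in all passed and 1020 had an unadjusted p under 0.05 (edgeR), against 2319 with all libraries. Over the 6 fits that each left out 1 library, Col1a1 ran from 0.73 to 1.60 (edgeR, adjusted p up to 0.704).

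Averaged over rest and running, no member passed between MKO and WT (edgeR, 0.0138% of all genes). An unadjusted p under 0.05 was reached by 14 members, Col9a1 among them, and by 2245 of 14486 genes (edgeR). DESeq2 passed 2, Col6a1 higher (0.44, adjusted p = 0.0278) and Col9a1 lower (-2.22, adjusted p = 0.0434). As stated above, Col9a1 carries no weight as support. The edgeR median was 0.27. Col1a1 had 0.92 ± 0.29, Col3a1 0.85 ± 0.29, Col8a1 0.58 ± 0.27, Col1a2 0.56 ± 0.18, Col6a1 0.45 ± 0.10, Col6a2 0.43 ± 0.14, Col15a1 0.42 ± 0.11, Col6a3 0.41 ± 0.17, Col5a1 0.39 ± 0.17, Col14a1 0.38 ± 0.19, Col5a2 0.31 ± 0.16, Col18a1 0.20 ± 0.08, Col4a1 0.15 ± 0.11, Col4a2 0.15 ± 0.10 and Col12a1 -0.06 ± 0.31. The lowest were Col9a1 (-2.16 ± 0.53), Col20a1 (-0.79 ± 0.85) and Col11a2 (-0.50 ± 0.18). Without running MKO replicate 2, 8 members passed, all higher in MKO, among 163 genes in all. Without running MKO replicate 4, 4 genes in all passed (edgeR). Over the 12 fits that each left out 1 library, Col1a1 ran from 0.67 to 1.11.

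Genes that make, process and sense collagen moved in both directions after running. Of 58 listed genes 51 were tested, and averaged over both genotypes 19 were lower and 7 higher (edgeR), where 7.40% of all genes were lower and 6.16% higher. The first steps of chain modification included higher genes. P4ha1 and P4ha2, subunits of the prolyl 4-hydroxylase that stabilises the helix, had 0.46 ± 0.09 (adjusted p = 0.00491) and 0.69 ± 0.07. Plod2, the lysyl hydroxylase that directs cross-links, had 1.22 ± 0.14, and Serpinh1, the collagen chaperone HSP47, had 0.51 ± 0.08. Serpinh1 lay at 67.2, 52.1 and 68.1 CPM in running MKO, 47.9, 46.6 and 44.5 CPM in running WT, 43.3, 35.6 and 43.2 CPM in resting MKO and 36.3, 36.2 and 33.2 CPM in resting WT libraries. In the same group of 18 tested genes, P3h3 (-0.66), Crtap (-0.50), Ppib (-0.33), Fkbp10 (-0.72) and Colgalt2 (-1.07) were lower.

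Among genes of later steps, those that passed were lower. Of 5 tested propeptide-cleavage genes, Bmp1 (-0.33), Pcolce (-0.82), Pcolce2 (-0.75) and Adamts2 (-0.72) passed, and of 4 crosslinking genes Loxl1 (-0.61). Among 8 fibril-associated genes Dcn (-0.74), Bgn (-0.98), Fmod (-1.14), Sparc (-0.43), Fn1 (-0.75) and Tnxb (-1.01) passed, and among 7 receptors Itga11 (-1.64), Ddr2 (-0.42) and Mrc2 (-0.81). In the group of TGF-β, its receptors and its readouts, 3 of 9 were higher and none lower: Smad3 (1.18 ± 0.08), Smad7 (0.52 ± 0.13) and Tgfb1 (0.44 ± 0.09). In MKO alone 6 of the listed genes were lower and 4 higher, and in WT 11 were lower and 4 higher; the shares of all genes were 1.75% and 2.29% in MKO and 4.10% and 4.14% in WT. In MKO Colgalt2, Pcolce, Adamts2, Dcn, Tnxb and Itga11 were lower and P4ha2, Plod2, Serpinh1 and Smad3 higher. In WT P3h3, Ppib, Colgalt2, Pcolce, Adamts2, Dcn, Bgn, Fmod, Tnxb, Itga11 and Mrc2 were lower and P4ha1, P4ha2, Plod2 and Smad3 higher. No listed gene passed between MKO and WT in either state or in the interaction. The lowest p-values were those of Fkbp10 (0.46 ± 0.19), Pcolce (0.37 ± 0.16) and Plod2 (0.45 ± 0.22) at rest and of Mrc2 (0.75 ± 0.17), Tgfbr1 (-0.47 ± 0.12) and Serpinh1 (0.43 ± 0.12) after running. For the interaction they were those of Tgfbr1 (-0.47 ± 0.17), Loxl3 (1.46 ± 0.59) and P3h3 (0.59 ± 0.24), and for the mean of both states Mrc2 (0.50 ± 0.12), Serpinh1 (0.32 ± 0.08) and Pcolce (0.40 ± 0.12).

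Markers of the cells that make collagen moved in the same comparison. Of 10 fibroblast and fibro-adipogenic markers 9 were lower after running over both genotypes, a comparison in which 7.40% of all genes were lower and 6.16% higher. Their summed level was 733.9, 618.1 and 591.4 CPM in running MKO and 561.4, 649.0 and 644.3 CPM in running WT libraries, against 1017.9 to 1248.6 CPM in resting MKO and 1090.5 to 1161.5 CPM in resting WT libraries. Of this sum Dcn alone averaged 161.1 CPM after running and 269.3 CPM at rest. Dcn and Lum are also among the fibril-associated genes above, so these lists are not separate. Pdgfra, the receptor that defines fibro-adipogenic progenitors, had -1.42 ± 0.09 (edgeR). Of 7 endothelial markers 5 were lower and 1 higher, with summed levels of 126.6 to 182.2 CPM after running and 169.4 to 221.4 CPM at rest. Of 7 mural markers 3 were lower, Pdgfrb, Notch3 and Tagln, at summed levels of 206.9 to 323.7 CPM after running and 288.1 to 415.0 CPM at rest. Muscle fibre markers (7) had none that passed, at summed levels of 114192.5 to 139148.9 CPM after running and 95137.2 to 123004.6 CPM at rest. Of 6 tested tendon markers Fmod alone passed as lower, while 5 of 6 had values below 0, with a median of -1.09. Fmod too is among the fibril-associated genes above. The summed tendon level was 43.2 to 98.6 CPM after running and 46.0 to 87.4 CPM at rest. Tnmd, a defining tendon marker, lay at 0 in 4 of 12 libraries and at most at 0.936 CPM. Of the cartilage and bone markers Acan, Matn1, Snorc, Bglap and Ibsp were at 0 in every library, Sox9 was higher (2.02 ± 0.16) and Cytl1 lower (-0.98 ± 0.22). Schwann, adipocyte and satellite markers had none that passed (6, 4 and 3 tested), and of 5 neuromuscular junction markers Musk was higher and Colq lower. The part of these markers in the collagen result was not tested.

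No marker of any cell type list passed between MKO and WT at rest or after running. All 7 macrophage markers had positive values in MKO against WT in both states (edgeR), with a median of 1.14 after running and 0.59 at rest. Their summed level was 77.5, 39.3 and 80.7 CPM in running MKO, 33.0, 34.8 and 27.3 CPM in running WT, 77.5, 66.0 and 94.7 CPM in resting MKO and 49.1, 56.6 and 49.2 CPM in resting WT libraries. Running MKO replicate 2 was again the lowest of its group. Fibroblast markers had medians of 0.41 after running and 0.20 at rest, with 9 and 10 of 10 above 0. Schwann markers had medians of 0.31 and 0.58, with 5 and 6 of 6 above 0, and satellite markers 0.18 and 0.43, with 2 and 3 of 3. Adipocyte markers had medians of -0.80 after running, with 4 of 4 below 0, and 0.14 at rest. After running 3 of 7 macrophage markers (C1qa, C1qc and Csf1r) were lower than at rest over both genotypes. The part of these values in the collagen result was not tested.

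**Figure D5:**
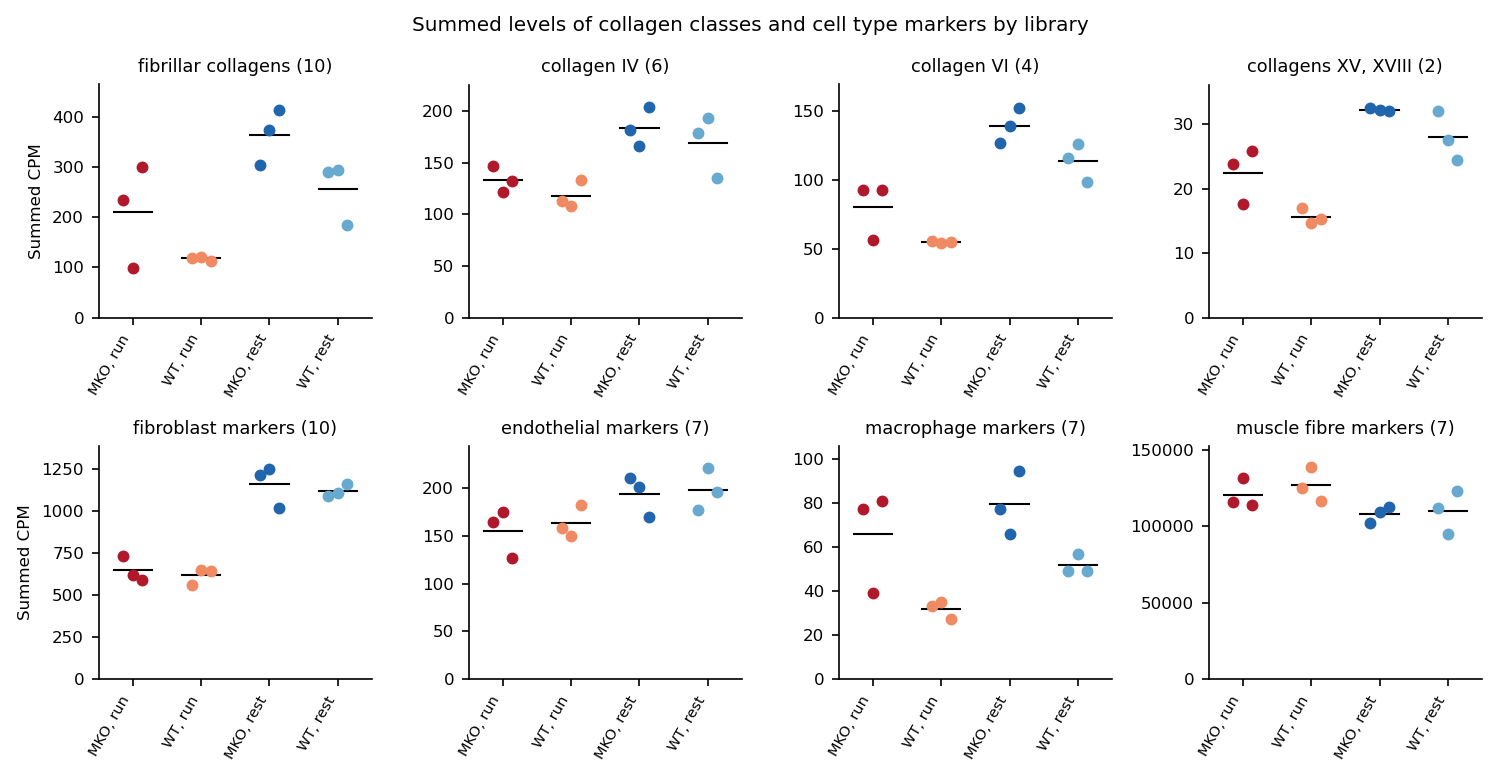
Summed CPM of 4 collagen classes (top) and of 4 sets of cell type markers (bottom) in each library, with the mean of 3 libraries as a bar, for running MKO, running WT, resting MKO and resting WT from left to right. Fibroblast markers show no overlap between the 6 running libraries (561.4 to 733.9 CPM) and the 6 resting ones (1017.9 to 1248.6 CPM), and running MKO replicate 2 has the lowest fibrillar sum (99.8 CPM).

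Promoters of 4 members that were lower after running are shown, because they moved together and their upstream sequence can be compared. Each is the 250 bases before the annotated start in RefSeq's table (GRCm38.p6). They come from the 6 such members whose window holds no annotated untranslated region. The 4 shown are those of the 6 in which any of the motifs below was found. Col1a1, Col5a2 and Col14a1, which were also lower after running, had no window in that table. Capitals mark matches on either strand to any of 3 motifs. The first is the TATA box, searched as TATAAA at any position of the window. The second is the CCAAT box, searched under those letters. The third is the GC box, searched as GGGCGG and seen as its reverse complement where it lies on the other strand. None of the motifs contains another.
Col3a1 (chr1:45311288-45311537, plus strand): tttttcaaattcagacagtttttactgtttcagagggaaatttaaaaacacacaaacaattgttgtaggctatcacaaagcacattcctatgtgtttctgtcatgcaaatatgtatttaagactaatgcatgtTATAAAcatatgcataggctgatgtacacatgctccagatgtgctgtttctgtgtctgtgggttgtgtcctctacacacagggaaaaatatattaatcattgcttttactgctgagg
Col5a1 (chr2:27886175-27886424, plus strand): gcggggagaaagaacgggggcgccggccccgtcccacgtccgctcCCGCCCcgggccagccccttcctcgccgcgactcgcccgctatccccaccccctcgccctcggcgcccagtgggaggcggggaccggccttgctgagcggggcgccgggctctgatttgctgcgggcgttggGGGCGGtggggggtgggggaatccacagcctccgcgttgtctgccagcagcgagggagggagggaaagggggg
Col5a3 (chr9:20815068-20815317, minus strand): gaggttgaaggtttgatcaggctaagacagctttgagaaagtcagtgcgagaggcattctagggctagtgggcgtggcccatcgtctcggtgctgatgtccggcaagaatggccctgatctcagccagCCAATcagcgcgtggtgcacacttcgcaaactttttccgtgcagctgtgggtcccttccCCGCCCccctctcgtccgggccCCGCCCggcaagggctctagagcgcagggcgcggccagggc
Col6a2 (chr10:76623631-76623880, minus strand): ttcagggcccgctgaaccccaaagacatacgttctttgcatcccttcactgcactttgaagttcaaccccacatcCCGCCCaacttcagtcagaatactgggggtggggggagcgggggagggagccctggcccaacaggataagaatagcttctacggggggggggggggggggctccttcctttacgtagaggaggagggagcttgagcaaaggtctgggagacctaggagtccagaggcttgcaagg
Their base composition differs widely, from 35.2% G and C in Col3a1 to 76.4% in Col5a1, against a median of 52.4% over all 32851 promoter windows. Col3a1 holds the letters TATAAA near the middle of its window, away from the start, and no GC box. Col5a1 and Col5a3 hold the GC box at 2 places, Col5a3 also a CCAAT box, and Col6a2 a GC box at 1. Col6a3 and Col15a1, the other two, hold none of the motifs in this window. Over 35 windows of 32 matched members, the GC box was found in 57.1% against 32.7% of all windows of the same length, the CCAAT box in 34.3% against 33.8% and TATAAA in 11.4% against 12.4%. These matches are descriptions of letters and not of binding.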

How the data were processed

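RNA from 12 gastrocnemius libraries was analysed (3 per group; the labels' protocols speak of 18 libraries). The deposited values were raw counts per Ensembl gene, which the authors had not normalised. Per the submitters' processing notes, the build was GRCm38.p6 and the tools included DESeq2 1.40.2, StringTie 2.1.4, HISAT2 2.2.1, R 4.3, SAMtools 1.9 and FastQC 0.12.1, in no stated order. The counting tool and its treatment of strand and shared reads are not stated. One misspelt column name was taken as running MKO replicate 4, the library left without a column. Symbols came from GENCODE M21 (42462 identifiers matched).

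Counts were fitted with edgeR 4.0.16 (R 4.3.3) as 1 quasi-likelihood model of 4 group means over 14486 genes kept by filterByExpr (minimum count 10, minimum total 15), with TMM scaling and 8 residual degrees of freedom; adjusted p-values run over all 14486. The biological coefficient of variation was 15.3%. Intervals and floors cover counting error only. Alternatives were DESeq2 1.42.0, other scalings, no filter, only the compared groups, each library omitted in turn and a replicate block; the removal of 3 libraries together was added after seeing the data. The fit was tested on simulated data. No duplicate libraries were found. Members, lists and tests were chosen with earlier results of these data known. Named genes were 14 fixed members, all that passed, the 3 highest and lowest in each comparison and the untested ones; of pathway genes, those that passed or, where none did, the 3 with the lowest p. Figures used matplotlib 3.10.9.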

Additional observations from a re-analysis of the deposited data

How the results depend on the processing

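The 15 members lower after running over both genotypes came to 13 to 18 passing members over 18 alternatives (14 to 16 with 1 library left out; 1 was higher in 3 of the alternatives: Col22a1, Col24a1 or Col7a1), and the median log2 fold change stayed between -0.78 and -0.51. With total counts as the scale, the median of all genes in this comparison moved by -0.12, 623 of 2713 passing genes were higher, against 893 of 1965 with TMM, and 16 members passed. In MKO the count of 4 was 10 with total counts, 2 with no filter, 1 with only the compared groups (fewer samples), 2 with the replicate block and 2 to 5 with 1 library left out, and the MKO median of -0.50 was -0.78 without resting MKO replicate 3, running WT replicate 5 and running MKO replicate 4 together and -0.62 to -0.36 with 1 library left out. In WT the count of 10 was 15 with DESeq2 (14 lower, Col7a1 higher), 5 with the replicate block and 4 to 12 with 1 library left out. Between running MKO and WT, 0 passing members became 1 with DESeq2 and 0 to 6 with 1 library left out. Over both states they became 2 with DESeq2 and 0 to 8 with 1 library left out. The interaction median of 0.07 ranged from -0.12 to 0.24 with 1 library left out. Col12a1 between running MKO and WT (0.00) turned to -0.005 with median-of-ratios factors, -0.012 with no filter, -0.02 without the 3 libraries, and ranged from -0.37 to 0.34 with 1 library left out. The cause of these shifts was not tested. Of 650 alternatives over 44 named gene values, 564 kept direction and side of the threshold, 73 no longer passed, 7 newly passed and 6 turned direction. Same-numbered libraries correlated at -0.15 to 0.08 and others at -0.10 to 0.11. This gave no sign that the numbers pair the samples, and 3 libraries a group are too few to exclude it. Over all genes the block changed 586 calls to 361 in MKO, 1193 to 602 in WT and 5 to 2 between running MKO and WT; DESeq2 changed 5 to 120 there and 2 to 134 over both states. Members with few counts, such as Col9a1, Col20a1 and the 9 untested ones, are limited by depth.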
